A study of Hydra vulgaris with 40 samples.

Results

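The budding zone and the body column are neighbouring regions of the trunk of Hydra vulgaris, and their RNA was compared gene by gene. The comparison uses 4 of the 40 RNA-seq samples of the series, 2 of the budding zone and 2 of the body column, all dissected from adult polyps. The other samples of this body map, 2 each from the foot, the hypostome and the tentacles, gave the scale for the comparison, and heads of buds and regenerating tissue gave lists of genes chosen on other samples. Polyps of all groups had been fed brine shrimp nauplii and then starved for at least 1 day, and no strain, transgene or treatment is named for either trunk region. The study's methods call the samples of a condition biological replicates, and the number of polyps in a body map sample is not given in the sources used here. Genes were compared when their value was above 0 in at least 2 of the 4 samples, which held for 16823 of 17438 genes.

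Hydra is a freshwater polyp built as a tube of 2 epithelial layers. Its mouth cone, the hypostome, and the ring of tentacles form the head at one end, and the foot holds the animal to the substrate at the other. Epithelial cells of the trunk divide continuously and are displaced toward both ends, where they become head or foot tissue, or into buds. The budding zone is the lower part of the trunk, between the body column and the foot, where buds form during asexual reproduction and later detach as new polyps.

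The values are adjusted signals on the scale of TPM, a relative abundance that allows for transcript length and depth, and differences are budding zone minus body column on the log2(value + 1) scale. The values summed to 999306 in each body column sample and 1002356 in each budding zone sample. Each of the 4 samples listed 924 genes at 0, and these were not all the same genes. Both samples of each tissue held the same sorted values, so their spread is that left after this adjustment, and p-values may be too small. The read depth is unknown. The gene identifiers could not be paired with gene names, so genes are described by their behaviour in other tissues, and the tissue labels were not checked against marker genes. In these bulk samples, fewer cells of a type and less RNA per cell cannot be told apart.

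The 2 trunk regions were more alike than any other pair of adult tissues. The correlation of levels across genes (Spearman) was 0.974 between the body column samples and 0.972 between the budding zone samples, and it ran from 0.956 to 0.958 over the 4 pairs that cross the regions. Body column and foot gave 0.892 to 0.907, budding zone and foot 0.906 to 0.934, and the trunk regions gave 0.855 to 0.885 with the hypostome and 0.724 to 0.740 with the tentacles. Genes are not independent replicates, so no p is given for these values, and all pairs of tissues share samples.

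The typical gene moved little more between the regions than between samples of one region. The median absolute difference between single samples was 0.18 in the body column, 0.17 in the budding zone, and 0.20 to 0.22 across the regions. At least 2-fold differences were seen for 515 genes between the body column samples, for 609 between the budding zone samples, and for 950 to 1060 across the regions. With the samples of each region averaged, the median absolute difference was 0.17, and 14954 genes (88.9%) lay within 1.5-fold. Of the 100 most abundant genes of each region, 93 were shared.

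**Figure D1:**
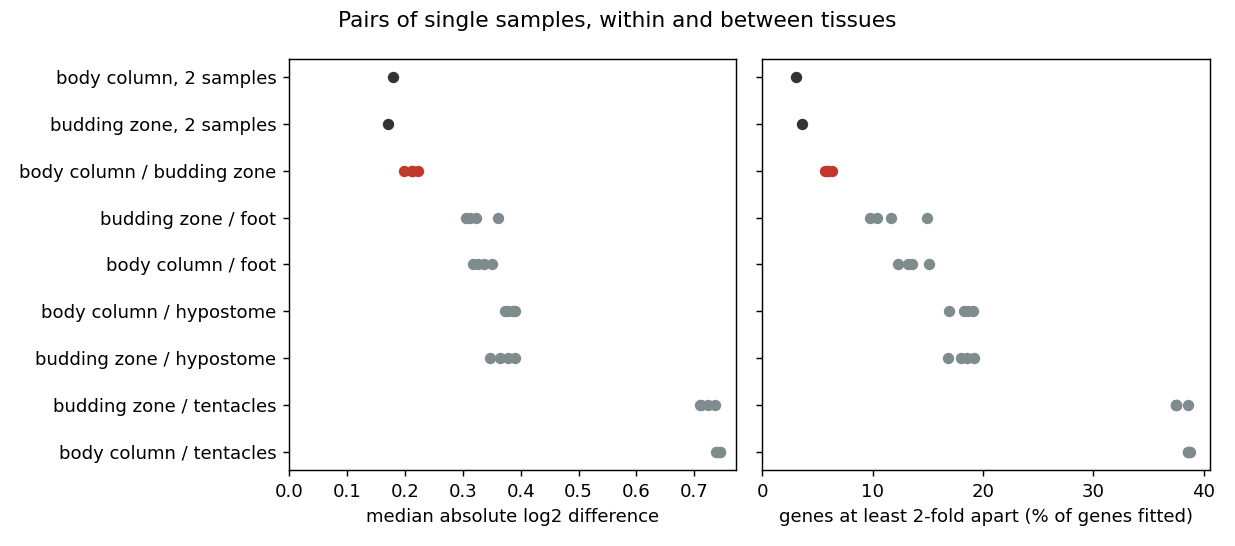
Each point is a pair of single samples from the same tissue (black), from the 2 trunk regions (red) or from other tissue pairs (grey). The left panel gives the median absolute difference on the log2(value + 1) scale and the right panel the percentage of the 16823 genes at least 2-fold apart. Pairs across the trunk regions lie at 5.65% to 6.30%, above the pairs within a region at 3.06% and 3.62%, and below all other tissue pairs shown.

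Against this likeness, 509 genes passed the test (limma, adjusted p of 0.05), which is 3.03% of the genes fitted. Of these, 304 were higher in the budding zone (1.81%) and 205 lower (1.22%), while 2382 genes had an unadjusted p under 0.05. The same fit called 22.5% of genes between foot and body column, 19.3% between foot and budding zone, 32.5% and 30.5% between hypostome and these regions, and 60.5% and 59.5% between tentacles and these regions. In all 509 genes the samples of the regions did not overlap. A lack of overlap was common, since 27.7% of all genes fitted had both budding zone samples above both body column samples and 15.4% had them below.

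The number of genes called depended on each sample and on the samples that shared the fit. Without body column replicate 1 it fell to 177, without body column replicate 2 to 309, without budding zone replicate 1 to 296, and without budding zone replicate 2 to 162. When only the 4 trunk samples were fitted, 66 genes passed (0.392%), 35 higher and 31 lower, and 61 of them were among the 509. A set of 116 genes, 62 higher and 54 lower, passed in the fit of 10 samples and again without each of the 4 samples in turn. For a single gene, an exact permutation test of 2 against 2 samples cannot give a p below 0.333.

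The genes that passed the test differed by more than the typical gene but held a small part of the RNA. The median difference was 1.08 for the higher genes and -1.28 for the lower genes, and 325 of the 509 were at least 2-fold apart (1.93% of the genes fitted), 180 higher and 145 lower. At least 4-fold differences were found for 32 higher and 54 lower genes. A further 306 genes were at least 2-fold apart without passing the test. Together the 509 genes took 5.35% and 5.39% of the summed values in the body column samples and 5.55% and 5.69% in the budding zone samples. The share of genes called was 0.934% at a mean value under 1, 3.28% from 1 to 10, 3.20% from 10 to 100 and 6.11% at 100 or more, where 42 genes were higher and 33 lower.

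**Figure D2:**
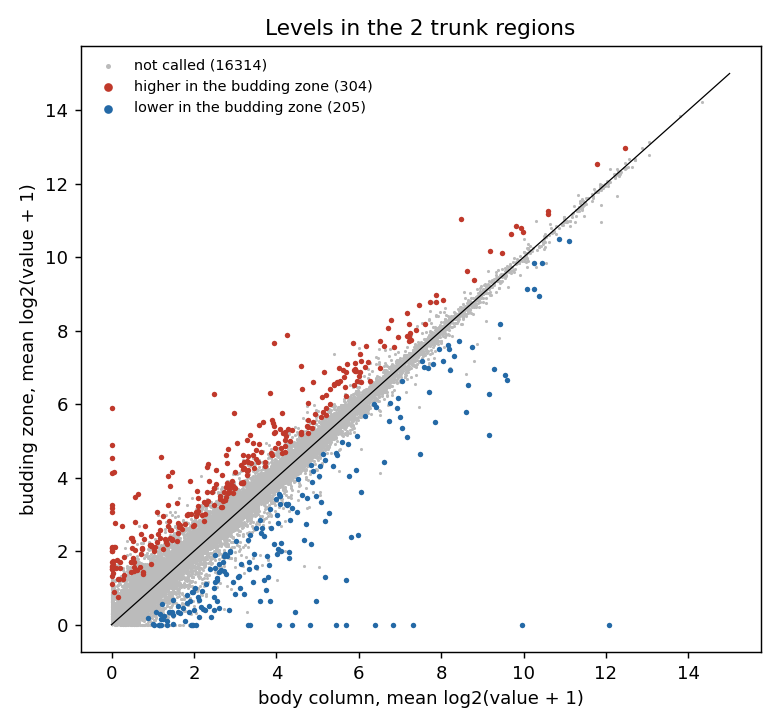
Each point is a gene, with its mean log2(value + 1) over the 2 body column samples on the x axis and over the 2 budding zone samples on the y axis. Most of the 16823 genes lie along the line of equal levels, and the 304 genes higher (red) and 205 genes lower (blue) in the budding zone lie off it, some of them at 0 in one region.

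By the rule for named genes, the 2 genes with the largest fitted difference in each direction are given by their identifiers, out of 231 higher and 148 lower genes that qualified. All 4 were listed at 0 in both samples of one region, so no fold is given. Samples at 0 add no spread to the fit of 10 samples, which makes its p-values for such genes smaller.

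Sc4wPfr_2017.1.g26848 had values of 4684.7 and 3938.82 in the body column. It was listed at 0 in both budding zone samples (limma adjusted p = 2.72e-09, and 0.00022 in the fit of only the 4 trunk samples). It was also listed at 0 in both foot and both tentacle samples and had 692.62 and 617.32 in the hypostome. The body column samples were thus the highest of the body map. In the 16 bud samples it ran from 1996 to 4457 with a median of 3472, and in the 14 regeneration samples from 3129 to 7658 with a median of 5584.

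Sc4wPfr_1400.g6659 had 1076.28 and 935.31 in the body column (limma adjusted p = 3.41e-08, and 0.000234 in the fit of only the 4 trunk samples). It was listed at 0 in the 8 other body map samples, including both of the budding zone. In buds it ran from 435.7 to 783.5 and in regenerating tissue from 385 to 1430.44. The body map samples at 0 therefore stood apart from every bud and regeneration sample for this gene.

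Sc4wPfr_42.2.g22114 was listed at 0 in both body column samples. It had 50.93 and 66.43 in the budding zone (limma adjusted p = 0.000108, and 0.00622 in the fit of only the 4 trunk samples). Its values were higher in the foot, at 161.78 and 170.92, and in the hypostome, at 217.12 and 240.36, and low in the tentacles, at 4.4 and 10.31. The body column was the only tissue of the body map in which both samples were listed at 0. Freshly cut tissue at 0 h of regeneration was likewise listed at 0 in both samples, whereas the bud samples ran from 84.12 to 253.54.

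Sc4wPfr_569.g11135 was listed at 0 in both body column samples and had 17.03 and 47.69 in the budding zone (limma adjusted p = 0.00441). Both of these were below the foot, at 226.01 and 647.35, and the hypostome, at 448.32 and 298.24, and both tentacle samples were listed at 0. The budding zone samples were far apart, and in the fit of only the 4 trunk samples the gene did not pass the test (limma adjusted p = 0.068). In regeneration it was listed at 0 in 11 of 14 samples, and in buds it ran from 49.25 to 75.02.

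**Figure D3:**
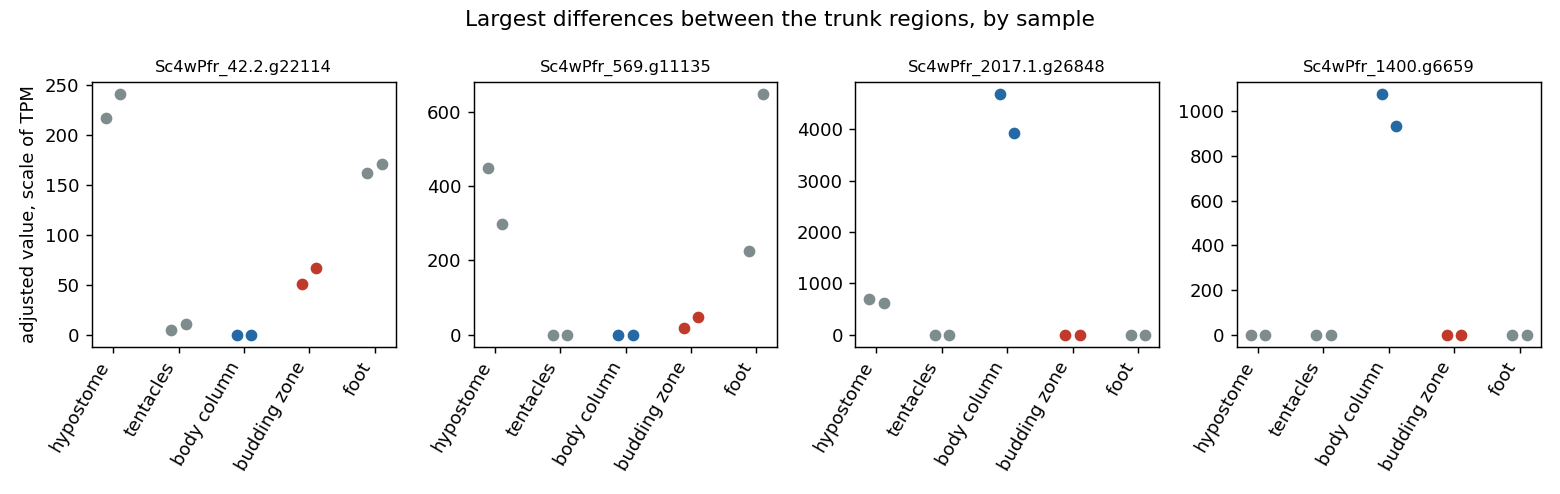
Adjusted values on the scale of TPM (y axes, linear and starting at 0, a separate scale for each gene) in the 10 body map samples. Body column points are blue, budding zone points red and other tissues grey. The first 2 genes are at 0 in both body column samples and the last 2 at 0 in both budding zone samples.

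Few genes were listed at 0 in one region and had a clear level in the other. There were 12 genes with at least 5 in both body column samples and 0 in both budding zone samples, and 7 genes with the reverse, against 56 for the body column over the foot and 86 for the body column over the hypostome. Of the 12 genes, 11 were listed at 0 in both foot samples and 11 were at 5 or more in both hypostome samples. Among all 17438 genes, each foot sample taken alone listed 696 at 0. Of the 7 genes with the reverse, 6 were at 5 or more in both foot samples, 3 in both hypostome samples and 1 in both tentacle samples. Levels of 5 or more were common in these tissues. The median level over all genes fitted was 6.245 in the foot, 7.02 in the hypostome and 7.055 in the tentacles. Since the values hold no counts, a 0 can also be an estimate that failed.

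The genes that passed the test were also different at the ends of the body, in samples that the difference between the trunk regions does not use. The spread in the fit of 10 samples did use them, so the calls are not independent of these samples. The fit of only the 4 trunk samples did not use them. Among the 304 genes higher in the budding zone, 229 (75.3%) had both foot samples above both hypostome samples, against 19.7% of all genes fitted. Their median difference between foot and hypostome was 1.35, against -0.14 over all genes fitted. The median of their mean values was 21.9 in the foot, 4.66 in the hypostome and 7.68 in the tentacles. Among the 205 genes lower in the budding zone, 114 (55.6%) had both hypostome samples above both foot samples, against 42.4% of all genes, and their median foot minus hypostome difference was -0.40. Their median level was 0.40 in the foot, 8.83 in the hypostome and 0.62 in the tentacles. Of the 62 higher and 54 lower genes that passed without each trunk sample in turn, 50 (80.7%) and 33 (61.1%) lay on these sides, as did 29 of the 35 higher and 25 of the 31 lower genes in the fit of only the 4 trunk samples. The called genes were thus far more often foot-side when higher, and moderately more often hypostome-side when lower, than the genes fitted.

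Across the 509 genes the trunk difference and the foot minus hypostome difference had a Spearman correlation of 0.63, and across all 16823 genes 0.16. The 509 genes were selected on the trunk difference, which can by itself raise the correlation, so 0.63 and 0.16 are not comparable. Both are descriptions across genes, and all these samples went through one normalization. A steady order of the means from hypostome through body column and budding zone to foot was less common. It rose in 40 of the 304 higher genes (13.2%), against 4.64% of all genes with a positive difference. It fell in 39 of the 205 lower genes (19.0%), close to the 17.3% of all genes with a negative difference. The highest of the 5 tissue means was in the budding zone itself for 129 of the higher genes, in the tentacles for 90, in the foot for 69 and in the hypostome for 16. For the lower genes it was in the body column for 118, in the hypostome for 52, in the tentacles for 29 and in the foot for 6. The call itself bars higher genes from a body column maximum and lower genes from a budding zone maximum. Shares of these maxima over all genes fitted were not computed, so the counts have no scale. Among foot, hypostome and tentacles alone, tentacles were highest for 31.6% of the higher and 20.5% of the lower genes, against 42.8% of all genes fitted.

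**Figure D4:**
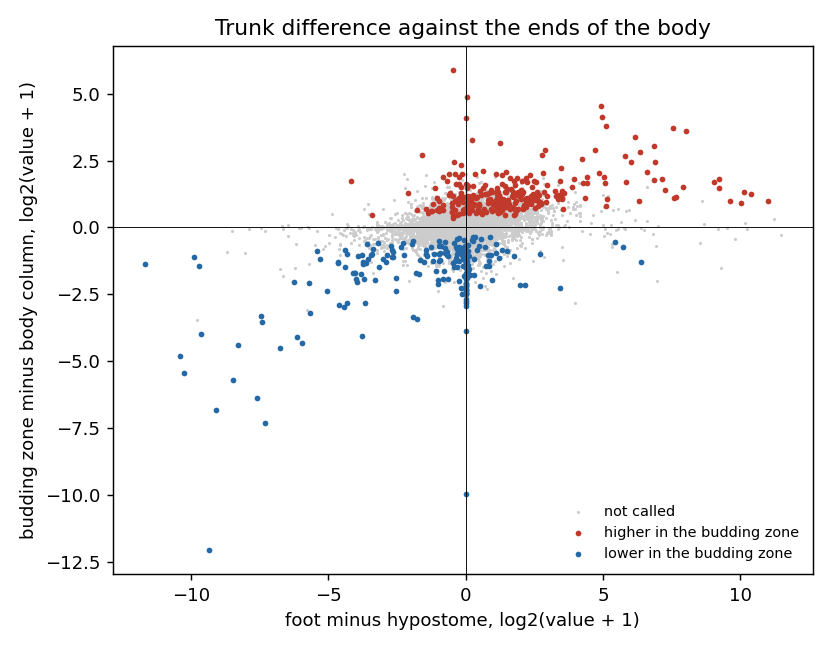
Each point is a gene, with the foot minus hypostome difference on the x axis and the budding zone minus body column difference on the y axis, both on the log2(value + 1) scale. Genes higher in the budding zone (red) lie mostly to the right, at foot levels above hypostome levels, and genes lower in it (blue) lie more to the left. The Spearman correlation was 0.63 over the 509 coloured genes and 0.16 over all 16823 genes. The coloured genes were selected on the y axis, which can raise their value.

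Lists of genes chosen only on other samples were then compared between the trunk regions. Foot-high genes, at least 4-fold above both hypostome and tentacles, numbered 433, of which 331 could be fitted. Their median value was 13.9 and 18.4 in the body column samples, 24.8 and 30.3 in the budding zone samples and 34.3 and 33.3 in the foot samples. The budding zone thus lay between the body column and the foot, with both of its samples above both of the body column. Of the 331 genes, 96 were higher in the budding zone (29.0%) and 6 lower (1.81%), against 1.81% and 1.22% of all genes fitted, and 224 had both budding zone samples above both body column samples. The median difference was 0.61 over the fitted genes and 0.37 with the 102 unfitted genes included, against 0.05 over all genes fitted, and across the 4 pairs of single samples it ran from 0.44 to 0.74. The 96 genes had a median of 53.3 in the budding zone and 15.2 in the body column, and 77 of them were at least 2-fold apart. Of the 331 fitted genes, 12 were listed at 0 in both body column samples and 2 in both budding zone samples. The filter set the direction of such genes, which numbered 83 and 90 over all genes fitted. The count of 96 was 42 without body column replicate 1, 38 without budding zone replicate 2 and 21 in the fit of only the 4 samples. The replicate deviations of foot and budding zone samples with the same number correlated at 0.22, the highest of the 10 tissue pairs, and the part of this in the result was not tested. Without the foot samples in the fit, 94 of these genes were higher and 8 lower.

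Genes of the hypostome were more often lower in the budding zone. Hypostome-high genes, at least 4-fold above both foot and tentacles, had a median value of 5.90 and 5.79 in the body column samples, 3.22 and 2.88 in the budding zone samples and 44.2 and 52.8 in the hypostome samples. Of 211 fitted of 232, 44 were lower in the budding zone (20.9%) and 1 was higher (0.47%), against 1.22% and 1.81% of all genes fitted. The median difference was -0.30 (-0.28 with the unfitted genes). It was -0.13 when the list needed only a 2-fold difference and -0.50 with a pseudocount of 0.1. Of the 211 fitted genes, 17 were listed at 0 in both budding zone samples and 0 in both body column samples. These 17 were fitted only through the body column, so the filter set their direction. The 44 genes had a median of 47.3 in the body column against 3.06 in the budding zone. The count of 44 was 24 without body column replicate 1, 28 without body column replicate 2, 23 without budding zone replicate 2 and 18 in the fit of only the 4 samples.

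Genes shared by the head were at least 4-fold higher in hypostome and in tentacles than in the foot. Of 131 fitted members, 26 were lower in the budding zone (19.8%), against 1.22% of all genes fitted. The median difference of the 131 was -0.20, but it was -0.00330 over all 196 members. The 65 unfitted ones were above 0 in at most 1 of the 4 samples. The median was -0.00830 when the list needed only a 2-fold difference. With a pseudocount of 0.1 it was -0.31. Of the 131 fitted members, 9 were listed at 0 in both budding zone samples and 1 in both body column samples, so the filter set their direction. The count of 26 was 9 without body column replicate 1, 16 without body column replicate 2, 10 without budding zone replicate 2 and 5 in the fit of only the 4 samples. Of the tentacle-high genes, at least 4-fold above both foot and hypostome, 535 of 694 were fitted. Of these, 29 were higher in the budding zone (5.42%) and 11 lower (2.06%), against 1.81% and 1.22% of all genes fitted. Median values of the list were 2.14 and 2.04 in the body column samples and 2.44 and 2.61 in the budding zone samples. All 4 were low beside the tentacle samples, at 42.4 and 41.4. The median difference was 0.16 over the fitted genes, 0.09 under quantile normalization and 0.06 over all 694 members, against 0.05 over all genes fitted. Of the 535 fitted genes, 13 were listed at 0 in both body column samples and 6 in both budding zone samples. The 29 higher and 11 lower genes became 9 and 4 without body column replicate 1, 12 and 7 without body column replicate 2, 13 and 8 without budding zone replicate 1, and 5 and 4 without budding zone replicate 2. In the fit of only the 4 samples 1 gene passed, and it was lower.

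**Figure D5:**
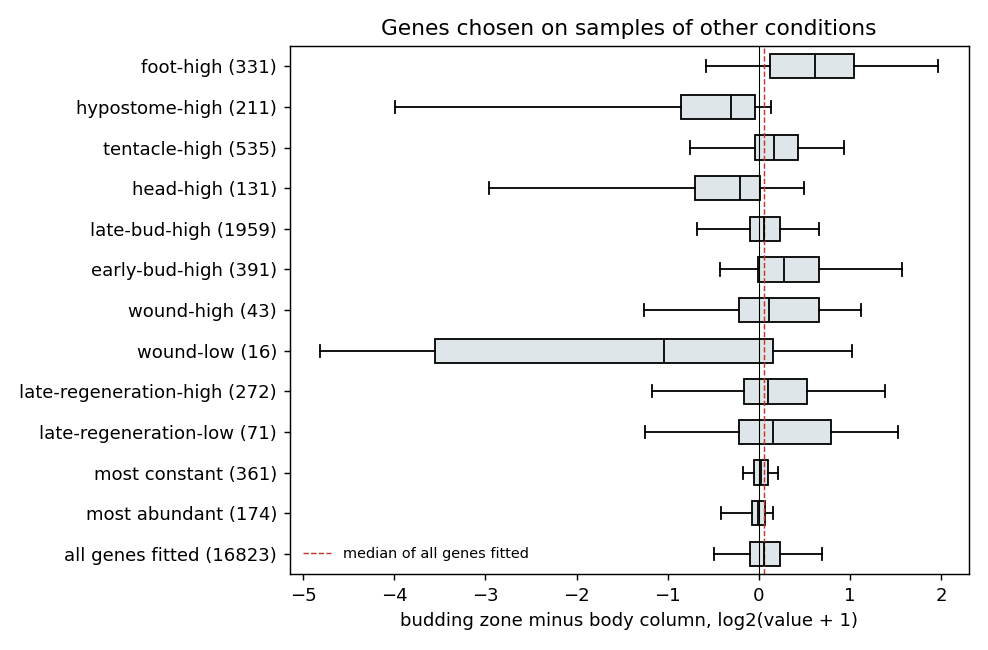
Budding zone minus body column differences on the log2(value + 1) scale for each list, with the number of fitted genes in parentheses. Boxes span the quartiles with the median as a line, whiskers span the 5th to the 95th percentile, and the dashed red line marks the median of all genes fitted, 0.05. The foot-high list lies to the right at a median of 0.61 and the hypostome-high list to the left at -0.30.

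Genes of early bud heads leaned toward the budding zone. The early-bud-high list holds 394 genes at least 2-fold higher in bud heads at stage 1 than at stage 10, of which 391 were fitted. Their median value was 6.85 and 7.14 in the body column samples and 9.58 and 10.1 in the budding zone samples, with 8.11 and 8.57 in the foot. Of the 391, 63 were higher in the budding zone (16.1%) and 2 lower (0.51%), against 1.81% and 1.22% of all genes fitted. The median difference was 0.27. The count of 63 was 30 without body column replicate 1, 22 without budding zone replicate 2 and 7 in the fit of only the 4 samples. This list and the foot-high list share 96 genes, 24.4% of the former and 22.2% of the latter. Of the 94 shared genes fitted, 41 were higher, with a median difference of 0.91. Of the 297 early-bud genes outside the foot-high list, 22 were higher and 2 lower, with a median difference of 0.15. The 1959 fitted genes that were higher in late bud heads had 41 higher (2.09%) and 51 lower (2.60%), against 1.81% and 1.22% of all genes fitted. The median difference of these 1959 genes was 0.05. In the fit of only the 4 samples 3 were higher and 17 lower, and without 1 of the 4 samples 9 to 21 were higher and 21 to 40 lower.

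The lists from regeneration were short, and the shares of their fitted members that passed the test are to be read against those of all genes fitted, 1.81% higher and 1.22% lower. Of 59 genes at least 4-fold higher 2 h after the cut than at 0 h, 43 were fitted, and 3 were higher in the budding zone (6.98%) and 1 was lower (2.33%). Their median difference was 0.11, and 0 over all 59. Of 22 genes at least 4-fold lower at 2 h, 16 were fitted, and 6 of these were lower in the budding zone (37.5%). Of the 16, 8 were listed at 0 in both budding zone samples and so were fitted only through the body column. Their median difference was -1.04 over the 16, -0.17 over all 22, -3.21 with a pseudocount of 0.1 and 0.00830 when the list needed only a 2-fold difference.

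Of 373 genes at least 4-fold higher at 48 h than at 0 h, 272 were fitted, and 19 were higher in the budding zone (6.99%) and 7 lower (2.57%). Their median difference was 0.10, but 0 over all 373 and 0.03 under quantile normalization. Of the 272 fitted genes, 10 were listed at 0 in both body column samples and 5 in both budding zone samples. Of 72 genes at least 4-fold lower at 48 h, 71 were fitted, and 9 were higher in the budding zone (12.7%) and 5 lower (7.04%), with a median difference of 0.16. The fit of only the 4 samples called 4 genes of the former list and 5 of the latter, and these were higher in the budding zone.

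The most constant genes of the other 36 samples differed little. Of these 361 genes, 0 passed the test (limma), also in the fit of only the 4 samples, and 19 had an unadjusted p under 0.05. Without body column replicate 1, 1 of them was higher. Their median difference was 0.02, and their quartiles were -0.05 and 0.10. Of the 174 most abundant genes of the other samples, 4 were higher (2.30%) and 8 lower (4.60%) in the budding zone. The share called was 6.90%, near the 6.11% of all genes fitted with a mean of 100 or more in the 4 samples. The median difference of the 174 genes was -0.01. In the fit of only the 4 samples 2 passed, both lower, and without 1 of the 4 samples 2 to 4 were higher and 3 or 4 lower. The 4 higher ones had a median of 4178 in the budding zone and 2555 in the body column.

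A group of 24 of the 205 lower genes (11.7%) was listed at 0 in every foot, hypostome and tentacle sample. Over all genes fitted only 32 (0.190%) were so listed, and the 24 are among them. Samples at 0 add no spread to the fit of 10 samples, which favours such genes, and 2 of the 24 passed in the fit of only the 4 trunk samples. These genes were found after their values were seen. Their mean ran from 2.32 to 1006 in the body column, with a median of 19.0, and the budding zone median was 3.07. Only 1 of them, Sc4wPfr_1400.g6659, was listed at 0 in both budding zone samples, so the group was present in the budding zone at a lower level. Of the 24, 23 were above 0 in all 16 bud samples, and 4 were above 0 in both samples of freshly cut tissue at 0 h.

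Called genes lay on 332 of the 1494 scaffolds with a fitted gene. Of 15329 pairs of neighbouring fitted gene models, 34 (0.222%) had both members called in the same direction and 8 in opposite directions. A further 837 pairs had exactly 1 member called. A neighbour called in the same direction was found for 64 of the 509 genes (12.6%), where 3.03% of all genes fitted were called. Whether called genes cluster was not tested. There were 27 runs of 2 genes and 3 longer runs, which are described after their values were seen. Neighbouring models can be near-identical copies among which the counting splits reads, so their values are uncertain, and no sequence was used here to check it.

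The longest run held 4 genes on scaffold Sc4wPfr_1152, all higher in the budding zone. Its first gene had 289.68 and 434.76 in the body column samples against 2064.46 and 2169.97 in those of the budding zone, 1645.72 and 1784.94 in the foot, and 88.68 to 90.73 in the hypostome and tentacles. It was 2.57 higher in the budding zone on the log2 scale (SE 0.16, limma adjusted p = 0.000301). Its most abundant gene had 5363.5 and 5987.53 in the body column. The budding zone samples had 8105.06 and 7878.38, a difference of 0.50 (SE 0.07, limma adjusted p = 0.0136). Both budding zone samples were the highest of the body map for these 2 genes.

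A run of 3 genes on scaffold Sc4wPfr_39 was lower in the budding zone. Its second gene had 409.2 and 372.53 in the body column. The budding zone samples had 61.96 and 47.23, a difference of -2.83 (SE 0.16, limma adjusted p = 0.000187). The hypostome had 359.83 and 434.36, close to the body column, and the foot 30.15 and 29.89, close to the tentacles at 35.82 and 44.86. A run of 3 genes on scaffold Sc4wPfr_385 was higher, by 1.05 to 1.29 on the log2 scale. In the middle gene of this run, the budding zone samples had 367.65 and 523.52, the body column samples 190.23 and 236.05, and the foot samples 341.16 and 386.92.

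The study characterised opsins, a receptor family that includes light sensors, and 2 of them could be matched to an identifier of the value table. HvOpD9 is among the opsins that the study found to lack the lysine that binds the light-sensitive retinal. HvOpD8 (Sc4wPfr_144.3.g33748) had 0.17 and 0.09 in the body column samples against 0.09 and 0.03 in those of the budding zone, a difference of -0.09 (SE 0.18, limma adjusted p = 0.907). HvOpD9 (Sc4wPfr_161.g25552) had 0.15 and 0.13 in the body column samples against 0.28 and 0.18 in those of the budding zone, a difference of 0.11 (SE 0.13, limma adjusted p = 0.804). Both opsins were near 0 in the trunk, and neither passed the test between its regions.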

How the data were processed

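Per the labels, total RNA of each tissue was reverse transcribed with a poly-dT primer and built into Smart-seq2 libraries. The authors trimmed reads with Trimmomatic 0.35, mapped them to a transcriptome with Bowtie 1.2, estimated TPM with RSEM 1.2.31, removed batch effects with ComBat and normalized with qsmooth. The values the authors deposited were treated as an adjusted signal, since both samples of a tissue share their sorted values; the depth and the precision it gives are unknown. The test designed for TPM was kept.

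log2(value + 1) of the 10 body map samples was fitted with limma 3.58.1 in R 4.3.3 (lmFit, eBayes with a trend), two-sided, with Benjamini-Hochberg adjustment over all genes fitted and an adjusted p of 0.05. The fit was also run on simulated data with independent noise in each sample. Such data lack the shared sorted values, so this run cannot show whether the p-values are too small. Lists needed a 4-fold difference of means of value + 1 (2-fold for buds) without overlap of samples; the most constant genes are the 5% of genes with a mean of at least 10 and the lowest SD over the other 36 samples, and the most abundant the 1% with the highest mean. Named genes were the 2 in each direction with the largest difference, a mean of at least 5 in the higher tissue and no overlap, plus matched opsins. No identifier matched the annotation of names used here, which comes from another assembly. The members and lists were chosen with earlier results of these data known. Alternatives changed the samples fitted, pseudocount, filter, scaling, trend, block, fold of the lists and samples left out, and 1, leaving out the foot samples, was chosen after seeing the data. Descriptions and figures were made with matplotlib 3.10.9, scipy 1.17.1, numpy 2.4.6 and pandas 2.3.3 under Python 3.11.15.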

Additional observations from a re-analysis of the deposited data

How the results depend on the processing

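Between 162 and 309 genes passed the test without 1 of the 4 samples, 86 to 172 higher and 75 to 137 lower, against 509, 304 and 205. All 40 samples in the fit gave 196 genes (108 and 88), only the 4 samples 66 (35 and 31), and a difference of at least 1 besides the adjusted p 325 (180 higher). A pseudocount of 0.1, no filter, a minimum of 1, both scalings, no trend, and fits without the tentacle or the foot samples gave 370 to 541 genes. Without the tentacle samples there were 214 higher and 156 lower, and median-ratio scaling gave 247 and 225. The replicate block gave 426 genes in the fit of 10 samples and 98 in the fit of 4 (45 higher and 53 lower). The deviations of samples with the same replicate number correlated at 0.06 between the trunk regions and from -0.23 to 0.22 over the tissue pairs. These values came after batch removal and normalization, so they cannot decide whether the replicate numbers pair the samples.

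The Spearman correlation of the means, 0.969, was 0.966 with a minimum of 1 and 0.962 to 0.964 without 1 sample. The median absolute difference, 0.17, was 0.22 with a pseudocount of 0.1 and 0.18 to 0.20 without 1 sample. Of 92 alternative list medians, 60 stayed within their spread and 3 changed sign: late-bud-high to -0.01 under quantile normalization, most constant to -0.05 under median-ratio scaling, and the genes lower at 2 h to 0.00830 with a list fold of 2. The causes were not tested. With 2 samples a tissue, no counts and values adjusted to one distribution, small differences and zeros are the least certain.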

Other observations

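Freshly cut tissue at 0 h of regeneration had a Spearman correlation across genes of 0.924 to 0.932 with the body column samples and of 0.908 to 0.920 with the budding zone samples. Bud heads at stage 1 were as close to one region as to the other, at 0.912 to 0.919 with the body column and 0.914 to 0.919 with the budding zone. At bud stage 8 the values were 0.877 to 0.889 with the body column and 0.868 to 0.877 with the budding zone. These are descriptions across 16823 genes.

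The genes that differ between the trunk regions had small median changes in the time courses. The median change from 0 h to 2 h of regeneration was 0.07 for the 304 genes higher in the budding zone and -0.13 for the 205 lower genes, against 0.00100 over all genes fitted, on the log2(value + 1) scale. From bud stage 1 to stage 10 the medians were -0.11, 0.05 and 0.06.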
